A study of Homo sapiens with 6 samples.

Results

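The HOX cluster genes are the homeobox genes that stand in 4 clusters of the human genome, HOXA, HOXB, HOXC and HOXD. They were chosen by name, as every listed gene whose symbol is HOX, a letter from A to D and a paralog number, and 39 of the 50868 listed genes qualified. The rule used names only, but it was set with earlier results of these data known. The libraries were made from total RNA of Huh7, an established human hepatoma cell line. 3 libraries came from cells given a plasmid that carries the circular RNA hsa_circ_0098181, and 3 from cells given the control plasmid. All cells were transfected with Lipofectamine 2000 and collected 48 hours later, so the circular RNA was raised from a transient plasmid in 1 line. Nothing in the sources says that the 3 libraries of a group are separate cultures, and p-values therefore measure only the spread between these libraries, which may be technical.

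HOX genes encode transcription factors that bind DNA through the homeodomain and give cells their position along the body axis. Within each cluster the genes stand in a fixed order, numbered from the anterior to the posterior end, and genes with the same number in different clusters are paralogs that arose by duplication of an ancestral cluster. Adult tissues keep part of the pattern set in the embryo, with Polycomb complexes holding clusters silent and trithorax complexes holding them active. HOX proteins act with TALE homeodomain partners of the PBX and MEIS families.

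The libraries held 11130902 to 14138262 gene counts, and 3 counts in 1 library corresponded to 0.212 to 0.27 CPM, the count scaled to a common library size. Albumin, alpha-fetoprotein and the other 10 hepatoma and hepatocyte markers were expressed in all libraries, with AFP at 12652 ± 96.8 CPM (SD, n = 3) in the overexpression group and 12149 ± 1253 CPM (SD, n = 3) in the control group. APOB, of the same list, had a log2 fold change of -0.39 (SE 0.17) with an adjusted p of 0.797 by edgeR, the only one with an unadjusted p under 0.05. Of 13 markers of other cell types, CDH5 and THY1 were at 0 in every library, while KRT19 (127 CPM over the 6 libraries), PECAM1 (54.3), CD68 (8.93), COL1A2 (8.21), PDGFRB (4.76) and PTPRC (1.21) were tested and not called. The table has 0 rows for the circular RNA itself, so its level was not checked here.

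The 4 clusters fell into 2 with reads at every gene and 2 with few reads, although HOXD1 of the HOXD cluster was expressed. The 11 HOXA genes on chromosome 7 held 7379 counts over the 6 libraries, which was 49.6% of the 14869 HOX counts. The 9 HOXC genes on chromosome 12 held 7281 counts, or 49%. The 9 HOXD genes on chromosome 2 held 199 counts, or 1.34%, and the 10 HOXB genes on chromosome 17 held 10 counts, or 0.0673%. Every HOXA and HOXC gene had at least 1 read. 8 of the 10 HOXB genes and 6 of the 9 HOXD genes were at 0 in all 6 libraries, together 14 of 39 (35.9%), against 18.8% of the 19691 protein-coding genes listed. For these 14, 0 of 75335080 counts allows a level of up to 0.0398 CPM over the 6 libraries, as far as counting error goes. HOXD3 and HOXD4 share 73% and 80.5% of their exon bases with other listed genes. How reads in shared bases were counted is not given, so the bound may not hold for such genes. The same split was present in each library on its own. HOXA counts ran from 1190 to 1266 per library and HOXC counts from 1049 to 1481, whereas HOXB counts ran from 0 to 4 and HOXD counts from 19 to 41.

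Stretches upstream of RefSeq start sites of 4 members are shown because they come from both kinds of cluster. They were taken from RefSeq (GRCh38.p14), are written 5′ to 3′ on the strand of the gene with CG pairs in capitals, and end at the base before the RefSeq start of transcription, except for HOXD1, where the stretch stops before the first annotated exon of the gene. HOXA9 (chr7:27165538-27165787, minus strand) and HOXD1 (chr2:176188418-176188578, plus strand) were expressed. HOXD11 (chr2:176107030-176107279, plus strand) and HOXB1 (chr17:48531012-48531261, minus strand) were at 0 in all libraries. The HOXA9 and HOXD11 stretches lie inside the gene bodies as listed (chr7:27162435-27175180 and chr2:176104216-176109754), where they overlap no annotated exon.
HOXA9: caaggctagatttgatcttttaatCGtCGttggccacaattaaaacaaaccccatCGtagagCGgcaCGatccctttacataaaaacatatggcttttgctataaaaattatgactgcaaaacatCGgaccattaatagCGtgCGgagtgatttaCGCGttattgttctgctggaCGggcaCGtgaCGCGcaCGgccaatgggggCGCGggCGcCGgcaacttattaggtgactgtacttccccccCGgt
HOXD1: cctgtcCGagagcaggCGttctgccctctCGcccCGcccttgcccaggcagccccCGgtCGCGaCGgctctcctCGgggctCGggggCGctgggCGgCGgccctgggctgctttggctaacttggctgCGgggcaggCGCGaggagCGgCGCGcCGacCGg
HOXD11: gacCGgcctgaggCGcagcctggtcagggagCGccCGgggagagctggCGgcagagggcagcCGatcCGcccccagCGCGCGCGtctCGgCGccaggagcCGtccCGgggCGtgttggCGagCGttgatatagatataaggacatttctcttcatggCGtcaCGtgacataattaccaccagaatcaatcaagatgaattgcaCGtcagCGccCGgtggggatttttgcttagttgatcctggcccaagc
HOXB1: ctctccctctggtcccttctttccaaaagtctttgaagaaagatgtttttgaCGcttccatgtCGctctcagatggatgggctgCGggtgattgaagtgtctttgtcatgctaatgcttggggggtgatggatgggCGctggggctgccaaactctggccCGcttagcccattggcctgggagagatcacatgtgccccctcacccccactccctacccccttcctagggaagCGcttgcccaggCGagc

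The CG pairs in these stretches numbered 20 of 250 bases for HOXA9, 21 of 161 for HOXD1, 23 of 250 for HOXD11 and 7 of 250 for HOXB1. By number, the silent HOXD11 stretch was thus no poorer in CG than the expressed HOXA9 stretch, while the silent HOXB1 stretch was poorer. The ratio of observed CG pairs to those expected from base content was 1.34 for HOXA9, 0.87 for HOXD1, 0.98 for HOXD11 and 0.34 for HOXB1. RefSeq windows were at hand for 20 of the 39 members, 27 in all, with 7 for HOXA3 and the same window for HOXC4 and HOXC5. Over the 16 distinct windows of the 10 tested members, 7 of them of HOXA3, there were 0 to 40 CG pairs in 250 bases (median 19). Over the 6 windows of the 6 members at 0 there were 4 to 28 (median 18.5), so the ranges overlapped. With only the window of lowest coordinate taken for each member, the tested members had 11 to 40 (median 22), and the ranges still overlapped. The median over all 35116 windows was 11. The letters TGATTNAT spell 1 form of the site bound by PBX and HOX proteins together. They were present on either strand in 2 of the 27 member windows (7.41%), those of HOXA2 and HOXD11, and in 2.48% of all windows. Other forms of the site were not searched for, so windows without these letters may hold one.

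**Figure D1:**
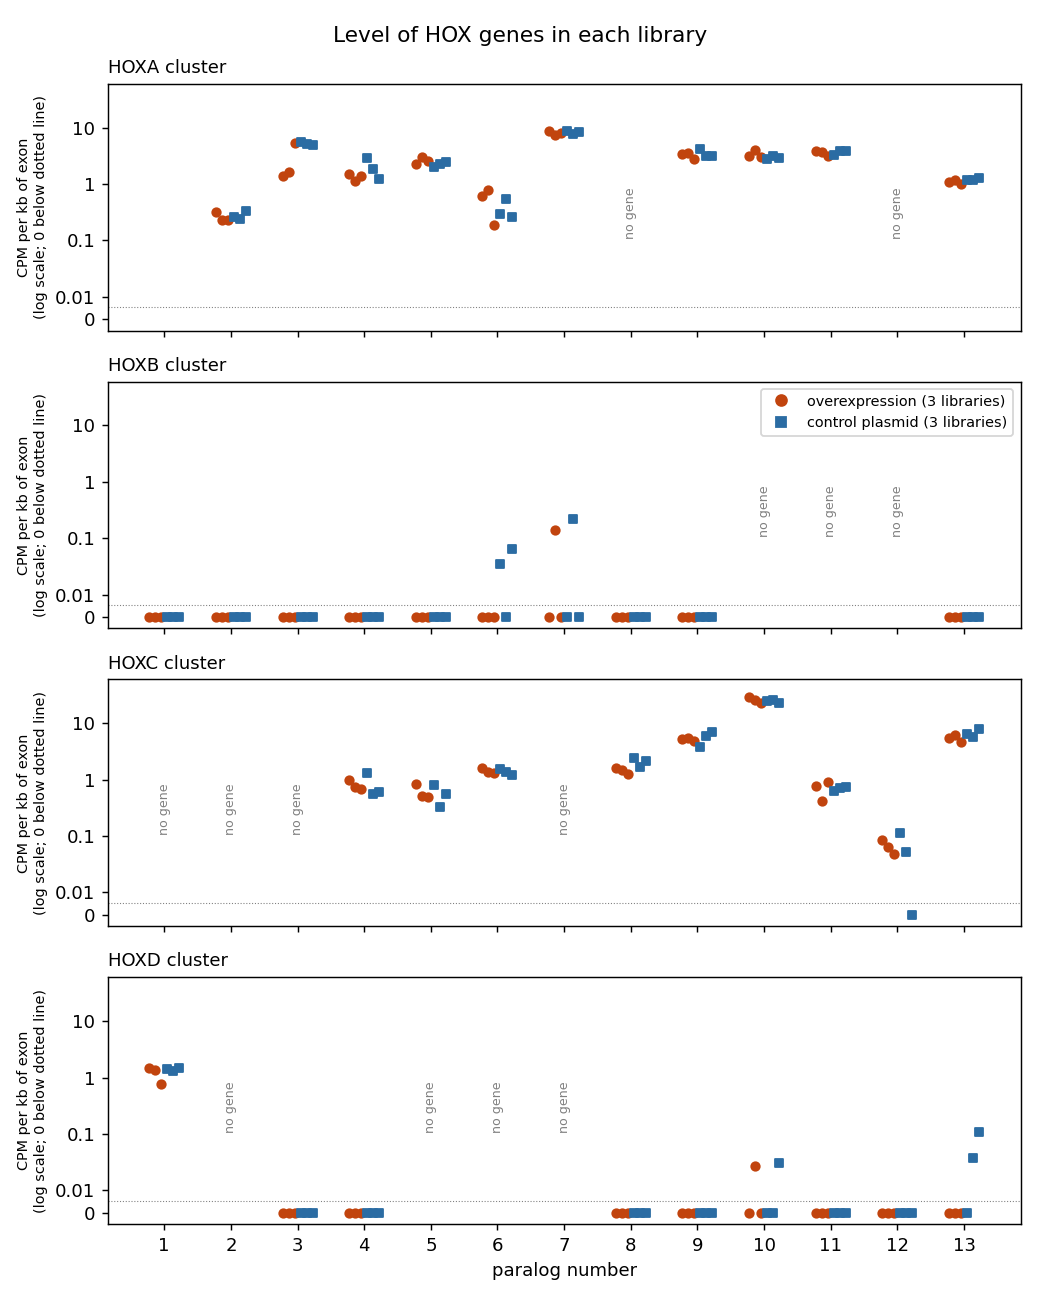
Level of 38 of the 39 HOX genes in CPM per kilobase of merged exons (log axis, with libraries at 0 drawn below the dotted line) by paralog number, 1 panel for each cluster. Circles are the 3 overexpression libraries and squares the 3 control libraries. HOXA and HOXC carry points at all genes shown, HOXD mainly at HOXD1, and HOXB only the few reads of HOXB6 and HOXB7.

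To compare genes with each other, CPM were divided by the length of all exons of the gene in kilobases, taken from GENCODE 29. That length includes bases shared with exons of other genes, and how reads there were counted is not given. The shared part was 62.5% for HOXA7, 59.9% for HOXC5, 58.1% for HOXD1 and 47.3% for HOXA4, against 9.82% for HOXC10. Levels of genes with a large shared part are therefore less certain. HOXC10 (ENSG00000180818, chr12:53985065-53990279), a posterior gene active in the lumbar region and hindlimb of the embryo, had the highest level. Its counts were 945, 847 and 649 in the overexpression group and 634, 716 and 644 in the control group, each given throughout from replicate 1 to replicate 3. Its level was 25.2 ± 2.33 CPM per kb (SD, n = 6), which was 32% of the summed level of all HOX genes and above 86.8% of the 12682 protein-coding genes tested. The lowest HOXC10 library, at 22.5 CPM per kb, was above every library of every other HOX gene.

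HOXA7 (chr7:27153716-27157936) was at 8.12 CPM per kb, HOXC13 at 6.1 and HOXC9 at 5.39. From HOXA7 on, each of these overlapped the next in the order over the 6 libraries, so neighbouring ranks are not separated. The members from HOXA3 (3.99 CPM per kb) through HOXA11 (3.6), HOXA9 (3.35), HOXA10 (3.13), HOXA5 (2.43), HOXC8 (1.76), HOXA4 (1.67), HOXC6 (1.41), HOXD1 (1.3), HOXA13 (1.14), HOXC4 (0.815), HOXC11 (0.691), HOXC5 (0.588) and HOXA6 (0.441) to HOXA2 (0.27) also overlapped from each to the next. Every HOXA2 library was above every library of the next gene, HOXB7 (0.0605), and the other 4 members with reads were lower in the mean than HOXB7.

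Along the HOXC cluster the level did not follow the order of the genes in 1 direction. It was 0.588 CPM per kb at HOXC5, 1.76 at HOXC8, 5.39 at HOXC9 and 25.2 at HOXC10, then 0.691 at HOXC11, 0.0599 at HOXC12 and 6.1 at HOXC13. In the HOXA cluster high and low genes stood side by side, with 0.441 CPM per kb at HOXA6 and 8.12 at HOXA7. Both share exon bases with other genes, 40.1% for HOXA6 and 62.5% for HOXA7. Of the 13 paralog groups, 7 had tested members in more than 1 cluster and 4 had 1 tested member. Groups 2 and 12 had none, and their best covered genes were HOXA2, with 7 to 11 counts per library, and HOXC12, with 0 to 4. Group 3 rested on HOXA3 alone and group 8 on HOXC8 alone, because their HOXB and HOXD paralogs were at 0.

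Of the HOXB cluster, HOXB7 had 0, 3 and 0 counts in the overexpression libraries and 0, 4 and 0 in the control libraries, and HOXB6 had 0, 0 and 0 against 1, 0 and 2. The other 8 genes, HOXB1, HOXB2, HOXB3, HOXB4, HOXB5, HOXB8, HOXB9 and HOXB13, were at 0. The absence of reads was shared by the whole stretch (chr17:48528526-48729178, 201 kb), in which the 11 other listed genes, among them HOXB-AS1 to HOXB-AS4, also had 0 counts. Of the other protein-coding genes in or beside the cluster, SKAP1, PRAC1 and PRAC2 were at 0 in every library, and TTLL6 had 2 to 12 counts in each.

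In the HOXD cluster the reads lay at the anterior end. HOXD1 (ENSG00000128645, chr2:176188579-176190907) had 41, 38 and 19 counts in the overexpression replicates and 30, 30 and 35 in the control replicates. HOXD13, at the posterior end, had 0, 0 and 0 against 0, 1 and 3, and HOXD10 had 1 count in each of 2 libraries. HOXD3, HOXD4, HOXD8, HOXD9, HOXD11 and HOXD12 were at 0. HAGLR, the noncoding gene transcribed from the opposite strand beside HOXD1, had 254 to 292 counts per library. The gene bodies of HOXD1 and HAGLR overlap over 380 bases, and since the use of strand in counting is not given in the sources used here, their reads cannot be told apart in that stretch. The protein-coding genes on either side of the HOXD cluster, MTX2 and LNPK, were expressed at 48.2 and 69.8 CPM over the 6 libraries, whereas EVX2, which lies directly beside HOXD13, was at 0.

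The comparison of the groups asked which genes differ when the circular RNA is overexpressed. 18 HOX genes passed the filter on low counts, namely 9 of HOXA, 8 of HOXC and HOXD1. None rose and none fell by edgeR's quasi-likelihood test at an adjusted p of 0.05 over all 15055 genes tested, and their adjusted p lay between 0.797 and 0.998. In the whole table, 4 were called higher (0.0266%) and 2 lower (0.0133%), so calls were rare. DESeq2 called no HOX gene either. At an unadjusted p of 0.05, edgeR gave 1 HOX gene, which is 5.56% of the 18 against 5.5% of all genes, and DESeq2 gave 0. The groups did not overlap for 3 HOX genes with lower values in the overexpression group (16.7%, against 6.5% of all genes) and for 0 with higher values (against 6.4%).

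The fitted log2 fold changes of overexpression over control ran from -0.90 for HOXA3 to 0.21 for HOXA5, with standard errors of 0.116 to 0.451. The median was -0.09 against 0.0023 over all genes, and 6 HOX genes had positive and 12 negative values. Between replicates, the SD of the median over the HOX genes was 0.077. In HOXA the median was -0.12, with 2 positive and 7 negative. It lay between -0.19 and -0.05 under every other scaling, filter and tool tried and without any 1 library. All these fits reuse the same 6 libraries, so they are not independent, and the median was not tested. In HOXC the median was -0.01, with 4 in each direction, and its sign was not stable. It was 0.0045 under upper quartile normalization, between -0.14 without overexpression replicate 1 and 0.04 without overexpression replicate 2, and above 0 also without overexpression replicate 3 and without control replicate 1.

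**Figure D2:**
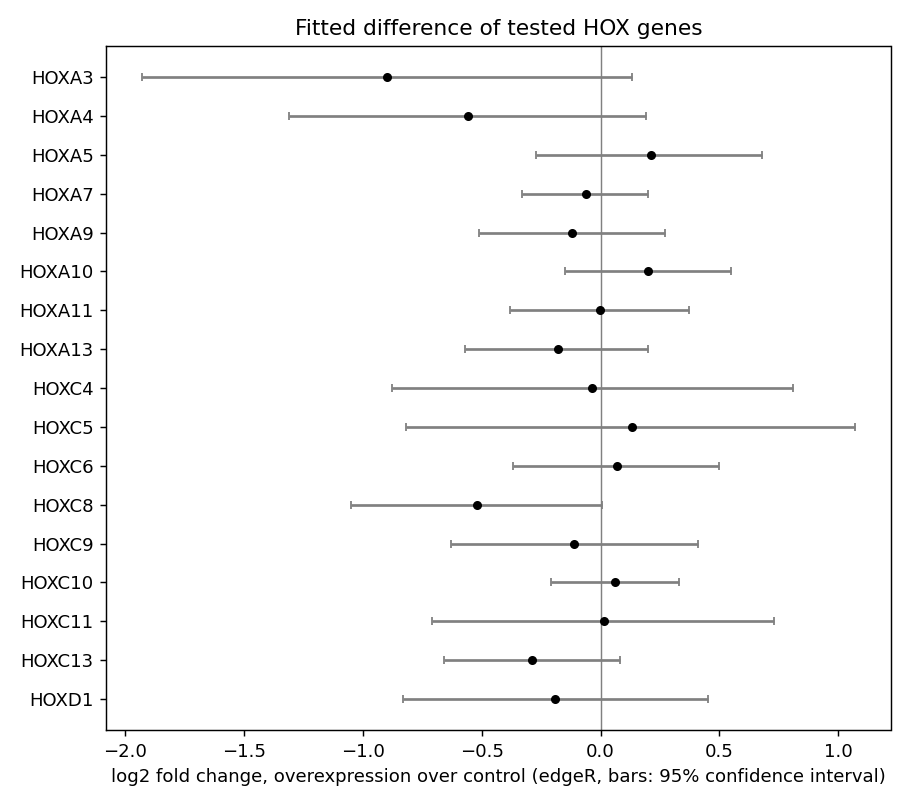
Log2 fold change of overexpression over control for 17 of the 18 HOX genes that passed the filter, from edgeR. Points are fitted values and bars 95% confidence intervals. The intervals of all 17 genes shown include 0.

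The most expressed members differed little. HOXC10 had 66.9, 60.4 and 52.4 CPM in the overexpression replicates and 58.5, 61 and 53 CPM in the control replicates. The groups overlapped, with means of 59.9 ± 7.24 and 57.5 ± 4.09 CPM (SD, n = 3 each) and a fitted log2 difference of 0.06 (SE 0.12, 95% interval -0.21 to 0.33). HOXA7, known from leukaemia together with its neighbour HOXA9, had 20.7, 17.8 and 19 CPM against 21.1, 18.8 and 20.1 CPM, and its interval was -0.33 to 0.20. HOXC13, a regulator of hair and nail keratins, had 13.4, 15.1 and 11.5 CPM against 15.7, 14.1 and 19 CPM, with a log2 fold change of -0.29 (SE 0.16). For HOXA7 and HOXC13 too the groups overlapped. The HOXC10 and HOXA7 intervals leave room for changes of at most 0.33 on the log2 scale in either direction, while those of the weakly expressed HOXC5 and HOXC4 reached from -0.82 to 1.07 and from -0.88 to 0.81.

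HOTAIRM1, a noncoding RNA of the HOXA cluster, had 3.33, 3.71 and 4.85 CPM in the overexpression replicates against 2.12, 2.98 and 2.63 CPM. All overexpression libraries were above all control libraries, as for 6.4% of all genes tested. The log2 fold change was 0.61 (SE 0.24), with an adjusted p of 0.797 by edgeR. Its unadjusted p was 0.0351 by edgeR and 0.0734 by DESeq2. In edgeR fits without overexpression replicate 2 or 3, or without control replicate 1 or 3, it was 0.058 to 0.137.

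HOXC8 and HOXA13 were among the genes without overlap and are named for that reason. HOXC8, a thoracic patterning gene, had 3.04, 2.78 and 2.34 CPM against 4.52, 3.15 and 4.11 CPM, and a log2 fold change of -0.52 (SE 0.23). HOXA13, the most posterior HOXA gene, had 5.45, 5.85 and 5.01 CPM against 6, 6.05 and 6.5 CPM, and a log2 fold change of -0.18 (SE 0.17). Both had adjusted p of 0.797 or more by edgeR.

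HOXA3 (ENSG00000105997, chr7:27106184-27152581), a pharyngeal and neck patterning gene, stood apart by its spread within the overexpression group and is described for that reason, after its values had been seen. It had 84, 98 and 287 counts against 263, 253 and 256 in the control group. In CPM these were 5.95, 6.99 and 23.2 against 24.3, 21.5 and 21.1. Overexpression replicates 1 and 2 were low, and replicate 3 was among the control libraries. The coefficient of variation was 80.3% in the overexpression group and 7.76% in the control group. The log2 fold change was -0.90 (SE 0.45, 95% interval -1.93 to 0.13), with an adjusted p of 0.797 by edgeR. Without overexpression replicate 3 it was -1.78, with an adjusted p of 0.02 by edgeR, and without overexpression replicates 1 and 2 in turn it was -0.57 and -0.62, neither of them called.

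A spread of that size was rare. Of 9953 tested genes with at least 10 CPM, 49 (0.492%) varied as much or more among the overexpression replicates, by the ratio of the highest to the lowest library, and 40 (0.402%) varied as much among the control replicates. The other 6 HOX genes at that level varied by ratios of at most 1.31 and 1.35. HOXA3 has 7 RefSeq start sites spread over 38741 bases, and its gene body contains HOXA4, HOXA5 and HOXA6. Its exons share 17.9% of their bases with other genes, among them the antisense gene HOXA-AS2. HOXA-AS2 had 13, 10.9 and 10.4 CPM in the overexpression replicates and 8.77, 10.5 and 10.3 CPM in the control replicates. The HOXA-AS2 groups overlapped, and its level in overexpression replicate 2 was close to that in control replicates 2 and 3. The sum of HOXA3 and HOXA-AS2 was 19, 17.9 and 33.6 against 33, 32 and 31.4 CPM. The part of the shared bases in the HOXA3 values was not tested.

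**Figure D3:**
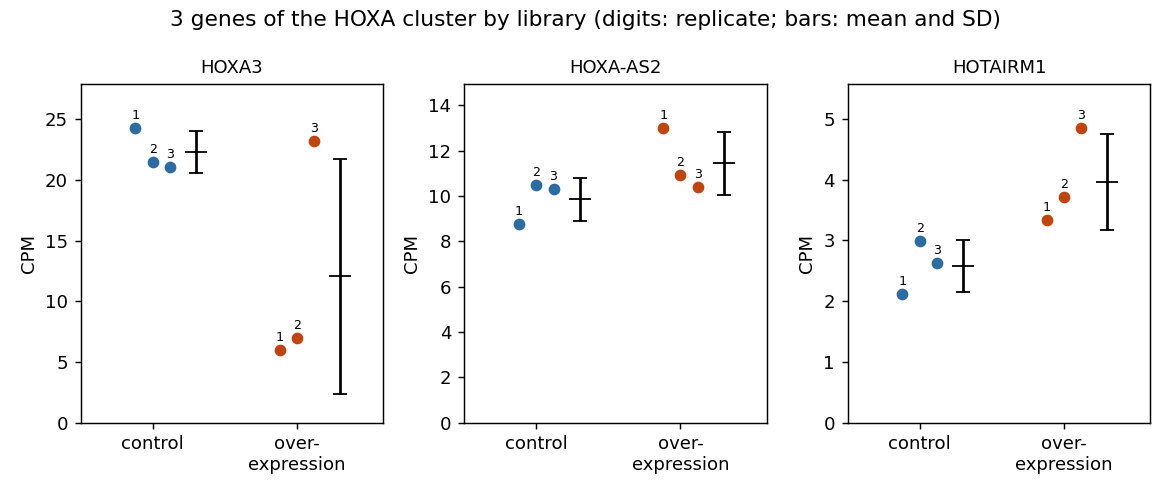
CPM of HOXA3, HOXA-AS2 and HOTAIRM1 in the 3 control and 3 overexpression libraries. Points are libraries with the replicate as a digit, and bars show the mean and SD (n = 3). HOXA3 was low in overexpression replicates 1 and 2 only, at 5.95 and 6.99 CPM.

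Much of the difference of the summed HOXA cluster lay in HOXA3. The sum was 87.2, 90 and 96.1 CPM in the overexpression replicates and 113, 103 and 104 CPM in the control replicates, a ratio of means of 0.85 with no overlap. Without HOXA3 the values were 81.3, 83 and 73 against 88.9, 81 and 83.1 CPM, with a ratio of 0.94, and the groups overlapped. The HOXC sum was 105, 97.1 and 84.8 against 98, 97.7 and 97.3 CPM, with a ratio of 0.98. The HOXD sum was 2.9, 2.78 and 1.54 against 2.77, 2.64 and 3.21 CPM. Both overlapped between the groups. These sums are descriptions and were not tested.

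The remaining tested members had overlapping groups. HOXA4 had a log2 fold change of -0.56 (SE 0.33), HOXA5 of 0.21 (SE 0.21), HOXA10 of 0.20 (SE 0.15), HOXA9 of -0.12 (SE 0.17) and HOXA11 of -0.0034 (SE 0.16). In HOXC, HOXC9 had -0.11 (SE 0.23), HOXC5 0.13 (SE 0.41), HOXC6 0.07 (SE 0.19), HOXC4 -0.04 (SE 0.37) and HOXC11 0.01 (SE 0.31). HOXD1 had 2.9, 2.71 and 1.54 CPM against 2.77, 2.55 and 2.88 CPM, and a log2 fold change of -0.19 (SE 0.28). The signs of HOXA11 and of the HOXC genes with values near 0 depended on the setting. HOXC4 and HOXC6 have exon bases in common, and HOXA4 shares 47.3% of its exon bases with HOXA-AS2 and other noncoding genes, so reads there can belong to more than 1 gene. HOXA4 was at -0.19 when control replicate 1 was left out and at -0.82 when control replicate 3 was left out.

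The genes that act with or upon HOX genes were taken from lists of known members. These lists were drawn up with earlier results of these data known. Of the TALE cofactors, 8 of 11 were tested and 1 passed, PBX2, with 54 ± 3.18 CPM in the overexpression group against 29.5 ± 1.72 CPM in the control group (SD, n = 3 each), a difference of 0.87 on the log2 scale (SE 0.10) and an adjusted p of 0.0483 by edgeR. The call was lost under RLE normalization (adjusted p 0.0501 by edgeR) and without any 1 of the libraries (0.0589 to 0.185), while the difference stayed at 0.87 and at 0.82 to 0.91. PBX3, MEIS1, MEIS2, PKNOX1, TGIF1 and TGIF2 had log2 fold changes from -0.23 to 0.07.

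All 31 Polycomb genes were expressed and none was called in either direction. None had an unadjusted p under 0.05, and the median log2 fold change was -0.04. EZH2, the catalytic subunit that methylates histone H3, had 94.3 ± 3.64 against 100 ± 16.5 CPM (SD, n = 3 each). All 22 trithorax and MLL complex genes were tested and none was called, with 4 positive and 18 negative values and a median of -0.16. HCFC1 (-0.40, SE 0.11), NCOA6 (-0.40, SE 0.16) and ASH1L (-0.37, SE 0.14) had an unadjusted p under 0.05, which is 3 of 22 beside 5.5% of all genes, for which 7601 values were positive and 7454 negative. Without control replicate 1, NCOA6 was at -0.18 and ASH1L at -0.27, and neither passed that threshold. ASH1L did not pass it without overexpression replicate 1 either (-0.24), nor did NCOA6 without overexpression replicate 1 (-0.35) or 3 (-0.39). Of 11 genes for CTCF and cohesin, which fold the clusters into loops, none was called, 10 had negative values and the median was -0.13. STAG2 (-0.35, SE 0.11) had an unadjusted p under 0.05.

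Transcript length moved with these values. The log2 fold changes had a median of 0.09 over the fifth of genes with the shortest exons and of -0.09 over the fifth with the longest. The median exon length was 8566 bases for the trithorax list, 10174 for CTCF and cohesin, and 2417 for the tested HOX genes. Without control replicate 1 the list medians were -0.06 for trithorax and -0.06 for CTCF and cohesin. The part of length in the list medians was not tested.

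Of the 17 genes for retinoic acid receptors and turnover, 11 were tested, none was called at either threshold, and the median was 0.08. Of 26 noncoding genes of the clusters, 18 were in the table, 6 were tested and none was called, with HOTAIRM1 the only one at an unadjusted p under 0.05. HOTAIR, which is transcribed within HOXC, had 39, 13 and 35 counts in the overexpression replicates and 16, 24 and 37 in the control replicates. HOTTIP, at the posterior end of HOXA, did not pass the filter, and had 8, 1 and 8 counts against 9, 14 and 16. The 9 tested protein-coding neighbours of the clusters had a median of -0.02 and none was called. Of the ParaHox genes, the sister family of HOX, CDX2 and PDX1 were tested and neither was called, while CDX1, CDX4 and GSX1 were at 0.

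**Figure D4:**
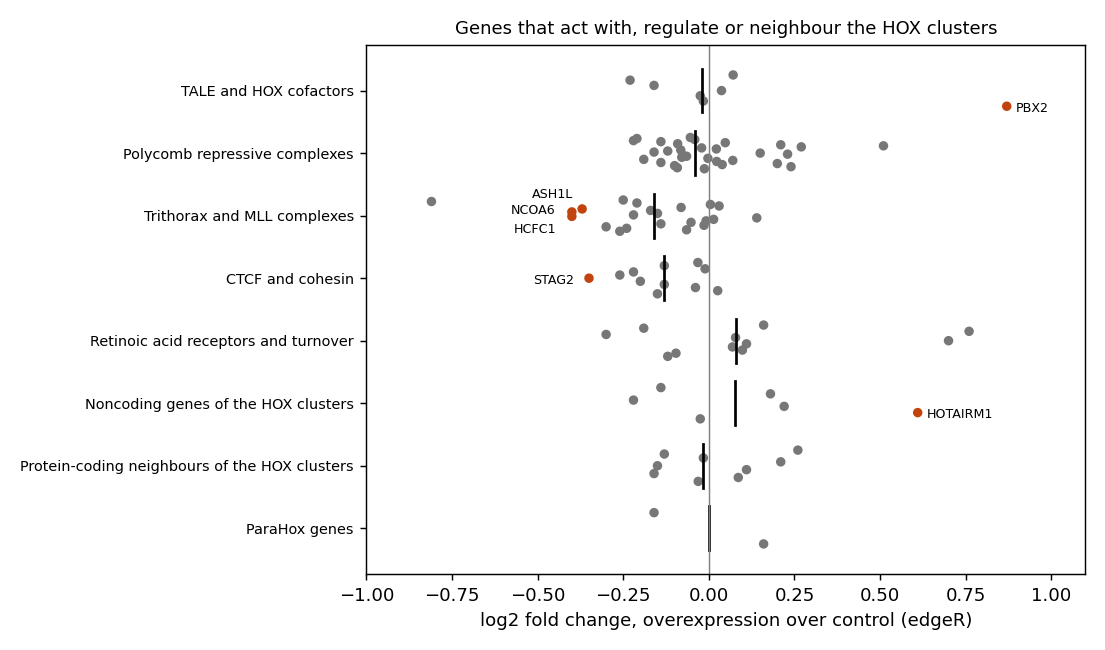
Log2 fold change of overexpression over control (edgeR) for the tested members of 8 lists of genes that act with, regulate or neighbour the HOX clusters. Each point is a gene (1 TALE gene is not drawn), black strokes are medians over all tested members, and named points had an unadjusted p under 0.05. PBX2 at 0.87 was the only one past the adjusted threshold.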

How the data were processed

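RNA sequencing of 6 Huh7 libraries was analysed, grouped and numbered by their titles. For every gene and library, the authors deposited a raw read count and an FPKM. The submitters' processing notes name TopHat2 2.0.9 and hg38. The counter, its use of strand and its handling of reads with several matches are not given in the sources used here. Of the 39 members, 38 have the coordinates of GENCODE 29, whose merged exons gave gene lengths. The deposited FPKM used longer exon sums for many members and served only as an alternative. 0 columns lacked a sample.

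The counts were fitted in edgeR 4.0.16 (R 4.3.3) over all genes, with filterByExpr (minimum count 10), TMM scaling, the two-sided quasi-likelihood test of the group, no covariates, and Benjamini-Hochberg adjustment over the 15055 genes tested. CPM used the TMM library sizes. The confidence intervals have a level of 95% and are not adjusted for the number of genes. The fit was tested on simulated data. Depth was 11130902 to 14138262 counts, and the floor of 3 counts covers counting error only. Within groups, library pairs differed by more than sampling noise (chi-square 10.1 to 20.9 per degree of freedom). Alternatives were RLE and upper quartile scaling, DESeq2 1.42.0, no filter, a mean of at least 50 counts, limma 3.58.1 on log2(FPKM + 1), a fit with a replicate block, and fits without each library in turn. Sums of HOXA3 with overlapping genes and the median without HOXA3 were added after the data were seen.

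The members and lists were chosen with earlier results of these data known. Per library, values are given for the 2 members with the highest level per kilobase in each cluster and for members at an unadjusted p under 0.05. The other tested members are given by their fold change, and list genes are named at an unadjusted p under 0.05. HOXA3, HOXC8, HOXA13 and further examples were named after their values were seen. 2 genes, 1 a member and 1 a list gene, are not reported here and still enter the counts and medians.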

Additional observations from a re-analysis of the deposited data

How the results depend on the processing

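The number of HOX genes called stayed at 0 in both directions under every alternative except 1. Without overexpression replicate 3, HOXA3 fell by 1.78 on the log2 scale (adjusted p 0.02 by edgeR), so leaving out 1 library gave 0 to 1 lower HOX genes. At an unadjusted p under 0.05 there were 1 HOX gene, 0 with DESeq2, 2 with limma on FPKM (HOXC8 among them) and 0 to 2 without 1 library. The gene was not the same in every setting. It was HOXA3 without a filter, with the replicate block and without overexpression replicate 3, and HOXA4 without control replicate 3. The HOX median of -0.09 ranged from -0.17 to -0.041 without 1 library, with -0.17 when control replicate 2 was left out, and was -0.06 without HOXA3. Summing HOXA3 with HOXA-AS2 gave -0.45 and with all overlapping genes -0.36. PBX2, the 1 called gene of the related lists, left 0 called under RLE, 0 with the replicate block (adjusted p 0.372 by edgeR) and 0 in each fit without 1 library. The call was kept with DESeq2 (adjusted p 2.84e-07) and limma (adjusted p 0.0435). It was also kept by edgeR with upper quartile scaling (adjusted p 0.0424), no filter (0.0112) and a mean of at least 50 counts (0.0461). HOXC10 held 26.1% of the summed level by deposited FPKM. Libraries with the same replicate number did not deviate together (correlations of deviations -0.036, -0.023 and -0.031). Whether they were prepared in pairs is not given in the sources used here. The replicate block left 0 HOX genes called, with HOXA3 at -1.13, and turned HOXC4 to 0.012 and HOXC11 to -0.023. HOXA11 turned to 0.012 with upper quartile scaling, 0.005 without a filter and 0.013 with limma. Without 1 library, values crossed 0 for HOXA9 (-0.19 to 0.014), HOXA11 (-0.079 to 0.083), HOXC4 (-0.25 to 0.46), HOXC5 (-0.16 to 0.48), HOXC6 (-0.022 to 0.15), HOXC9 (-0.32 to 0.084), HOXC10 (-0.026 to 0.15), HOXC11 (-0.20 to 0.28) and HOXD1 (-0.35 to 0.039). Of 225 single-gene values under alternatives, 22 changed sign, and the cause was not tested. Depth limits what can be seen in HOXC4, HOXC5, HOXC11 and HOXD1, with under 50 counts per library.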
